A study of Homo sapiens with 6 samples.

Results

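Calmodulin and the neuronal-type calcium sensors are small EF-hand proteins, that is proteins with helix-loop-helix motifs whose loops hold calcium. The 9 genes described here are CALM2 and CALM3 (calmodulin), VSNL1 (visinin-like protein), HPCAL1 (a hippocalcin-like sensor), NCALD (neurocalcin delta) and NCS1 (neuronal calcium sensor), CALN1 (calneuron), CALB1 (calbindin-D28k) and CAMK2N1 (an inhibitor of the kinase CaMKII). They were chosen by name, with earlier results of these data known. They make up 9 of the 34869 genes of the expression table, and all 9 were found in it. RNA was sequenced from NCI-H295R, an established human adrenocortical carcinoma line that makes adrenal steroids. The line carried lentiviral shRNA (a short hairpin RNA that lowers a target transcript) against TPD52, here called shTPD52, or a non-targeting shRNA, here called shCtrl. Each group held 3 libraries, and both groups had thus been transduced with lentivirus. The labels name neither the number of hairpins nor separate cultures, so p-values measure the spread between these libraries, which may be technical. The series title names aldosterone synthesis and CAMKK2, a kinase that calmodulin activates.

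As background, angiotensin II and potassium raise cytosolic calcium in the cells of the zona glomerulosa, the outer adrenal layer that makes aldosterone. Calcium-loaded calmodulin then activates kinases that drive transcription of the aldosterone synthase gene. Sensors of the NCS1 and visinin-like family carry a lipid at their first glycine, and in several of them calcium exposes it and moves the protein to membranes. Calbindin-D28k mostly buffers calcium, and calneuron sits on Golgi membranes. VSNL1, CALN1 and CALB1 are known as markers of the zona glomerulosa or of aldosterone-producing adenomas.

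CALM2 and CALM3 encode the same protein with different codons, and the stretch below shows why their reads can be told apart. It is the coding sequence of the first calcium-binding loop, codons 21 to 32 counted from the start codon, read 5′ to 3′ from the GENCODE release 29 transcripts. Capitals mark the 7 of 36 bases at which these genes differ.
CALM2: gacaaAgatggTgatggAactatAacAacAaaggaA
CALM3: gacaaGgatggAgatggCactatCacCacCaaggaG
Over the whole coding frame of 450 bases CALM2 shared 81.8% with CALM3, while all 149 translated residues were the same. The next set shows the loop at codons 73 to 84 of 3 sensors, with the 6 codons of the residues at calcium-coordinating positions in capitals.
VSNL1: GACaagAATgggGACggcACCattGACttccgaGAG
HPCAL1: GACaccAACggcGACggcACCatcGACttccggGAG
NCS1: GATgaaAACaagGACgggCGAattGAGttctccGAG
HPCAL1 and NCALD were the closest pair of sensors, with 80.9% of coding bases and 90.7% of translated residues shared. VSNL1 shared 71.1% of coding bases with HPCAL1 and 64.2% with NCS1. All 4 sensors began with methionine, glycine and lysine, which leaves the glycine free for a lipid. CAMK2N1, at 78 residues the shortest of the set, had no EF-hand loop by the same search.

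Several facts of the libraries touch these genes. TPD52 stood at 1.42, 1.18 and 1.29 FPKM (reads scaled to gene length and library depth) in shCtrl and at 0.630, 0.635 and 0.655 FPKM in shTPD52, so the groups did not overlap. In a fit to which it was added its log2 fold change was -0.65 (limma with Benjamini-Hochberg adjustment, adjusted p = 0.0218). Estimated depth ran from 29543876 to 38397336 reads. On the first principal component, with 61% of the variance, shTPD52 replicate 2 lay at 0.291, while shTPD52 replicates 1 and 3 lay at 27.3 and 35.3 and shCtrl between -24.1 and -16.4. Mitochondrially encoded genes took 18.01% to 19.02% of reads in shCtrl and 20.2% to 24.9% in shTPD52. All 10 adrenocortical markers averaged 1 FPKM or more. Among the neuronal markers 3 of 6 did so, but RBFOX3, which marks neuronal nuclei, stood at 0.00904 FPKM. The neuronal markers summed to 8.43 to 9.53 FPKM in shCtrl and 5.61 to 7.79 in shTPD52. The adrenocortical markers differed the other way in sum, with 474.8 to 498 FPKM in shCtrl and 535.8 to 550.8 FPKM in shTPD52. Single markers did not move as one. The mean of CYP17A1 was lower with shTPD52 (49.34 FPKM in shCtrl, 38.44 FPKM in shTPD52). STAR (135.5 and 135.1 FPKM), NR5A1 (71.8 and 73.61 FPKM) and SCARB1 (58.75 and 59.2 FPKM) were nearly level, and the remaining means were higher in shTPD52. The fibroblast sum, 0.965 to 1.28 FPKM in shCtrl, was 0.726 to 0.824 FPKM in shTPD52, and the leukocyte sum was also lower in shTPD52 without overlap. The part of these shifts in the results was not tested. The chromaffin, fibroblast and endothelial lists had no marker at such a level, and the leukocyte list had 1.

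VSNL1 was the only one of the 9 genes that passed the test, and it was higher with the TPD52 shRNA. The other 8 did not pass in either direction: CALM2 and NCALD had positive log2 fold changes and CALM3, CALN1, CALB1, HPCAL1, NCS1 and CAMK2N1 negative ones. Without adjustment 2 of these, CALN1 and HPCAL1, had p under 0.05. Over all 12782 genes tested (mean FPKM of 1 or more), 18.3% were called, 5.63% higher and 12.7% lower, so 1 call among 9 genes is a share near the background. The 3 shTPD52 libraries did not overlap the 3 shCtrl libraries for 6 of the 9 genes, against 42.0% of all genes. VSNL1, CALM2 and NCALD lay higher without overlap (13.8% of all genes did) and CALM3, HPCAL1 and NCS1 lower (28.3% of all genes). NCALD passed the filter only through its shTPD52 mean (1.091 FPKM, against 0.9435 FPKM in shCtrl). Its place among the 6 is therefore not independent of the filter. The median log2 fold change was -0.12 for the 9 genes and -0.11 for all genes tested. Median-ratio scaling moved the latter to 0.00054, so a log2 fold change near -0.11 here is the level of the typical gene. In RNA from a whole culture, fewer cells that express a gene and less RNA per cell cannot be told apart.

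**Figure D1:**
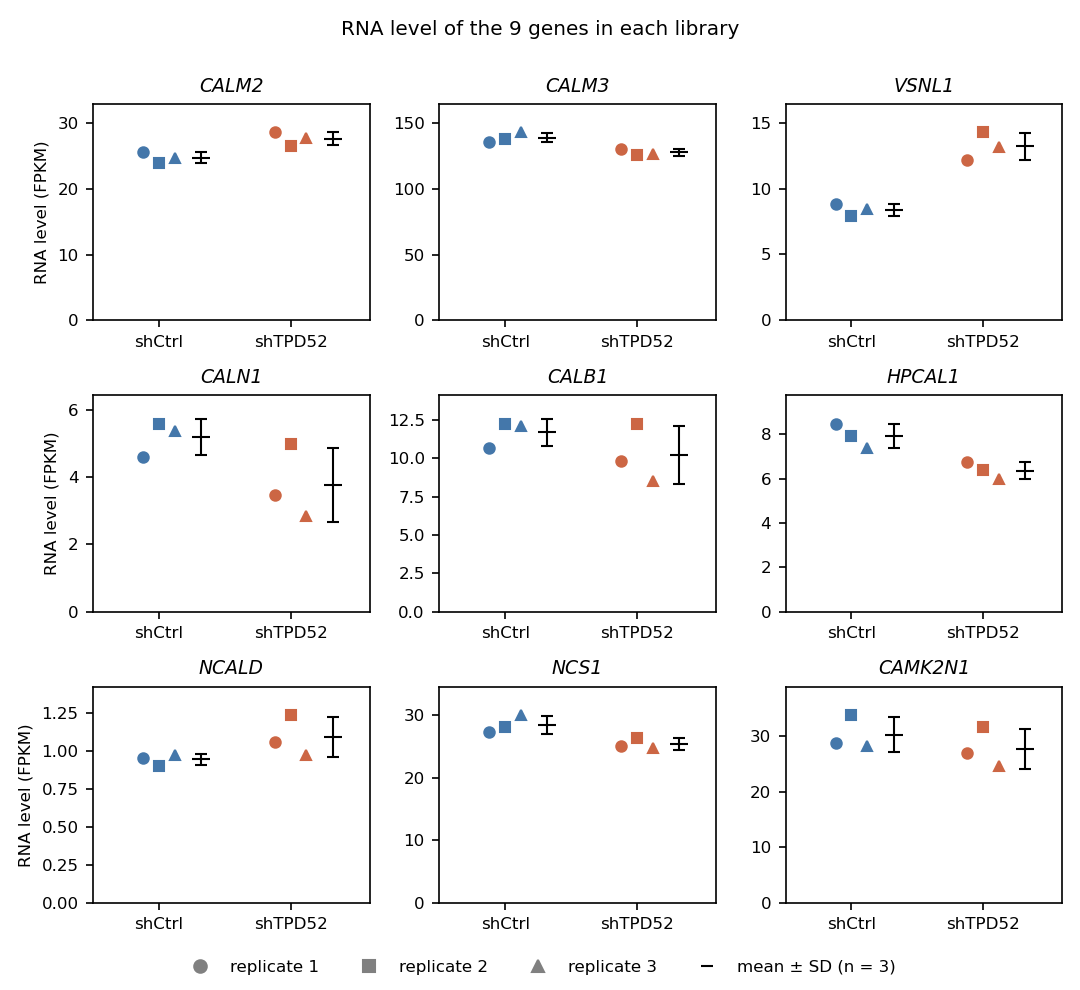
RNA level of each gene in FPKM (vertical axes, from 0) in the 3 shCtrl and 3 shTPD52 libraries, with the marker shape giving the replicate number and the black bar the mean ± SD. VSNL1 lies between 7.92 and 8.84 FPKM in shCtrl and between 12.2 and 14.2 FPKM in shTPD52, while CALN1 and CALB1 of shTPD52 replicate 2 lie within the range of shCtrl.

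The levels of the 9 genes, compared per length, spanned a wide range. In shCtrl the order of mean level ran CALM3, CAMK2N1, NCS1, CALM2, CALB1, VSNL1, HPCAL1, CALN1 and NCALD. CALM3 stood at 139 ± 3.57 FPKM (SD, n = 3) and NCALD at 0.943 ± 0.037 FPKM (n = 3). CAMK2N1 overlapped NCS1, and VSNL1 overlapped HPCAL1, so these neighbours did not differ beyond their spread. In shTPD52 VSNL1 stood above HPCAL1 in every library and overlapped CALB1, and CALM2 stood above NCS1 in every library. CALM3 lay at the 98.4th percentile of mean FPKM among genes tested and NCALD at the 0.516th, just above the filter.

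Calmodulin, the calcium sensor that binds the CaM kinases, calcineurin and many other enzymes, is encoded by both CALM2 and CALM3, and CALM3 was the more abundant of the pair in every library. CALM3 (ENSG00000160014, GRCh38 chromosome 19, 46601074 to 46610793, plus strand) was measured in shCtrl replicates 1, 2 and 3 at 136, 138.5 and 143.1 FPKM. In shTPD52 it stood at 130.7, 125.9 and 127.1 FPKM. All 3 knockdown libraries lay below all control libraries. The log2 fold change was -0.12 (95% interval -0.28 to 0.034, limma adjusted p = 0.216), close to the median of all genes, and it went to 0.0013 with median-ratio scaling. CALM3 shares 103 exon bases with PPP5D1P on the opposite strand, which stood at no more than 0.0738 FPKM in the means.

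CALM2 (ENSG00000143933, GRCh38 chromosome 2, 47160082 to 47176601, minus strand) measured 25.6, 24.0 and 24.7 FPKM in the controls and 28.6, 26.6 and 27.8 FPKM in the knockdown. Here the knockdown libraries all lay above the controls. The log2 fold change was 0.16 (95% interval -0.014 to 0.33, limma adjusted p = 0.156). It was positive in all 16 alternatives, between 0.13 and 0.28, and passed in none (adjusted p from 0.0502 to 0.358). CALM2P2, the only pseudogene of this pair found by name in the table, stood at 2.45 to 3.18 FPKM in shCtrl and 0.414 to 1.62 FPKM in shTPD52. Reads may be exchanged between it and its parent gene, which was not tested, so the level of CALM2 is uncertain.

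The balance of CALM3 and CALM2 is unchanged by a scaling of whole libraries. In each library the log2 ratio of CALM3 to CALM2 was taken, which gave 2.41, 2.53 and 2.53 in shCtrl and 2.19, 2.24 and 2.19 in shTPD52. Every knockdown library had a lower ratio than every control. The difference was -0.28, a ratio 0.823 times that of shCtrl (exact two-sided permutation p = 0.1, the smallest that 3 against 3 libraries allow). It lay between -0.41 and -0.26 in the 10 alternatives run for it, among them -0.32 (exact permutation p = 0.2) with a length and GC correction, which takes off a smooth fit of each library's deviations on gene length and GC content.

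VSNL1, CALN1 and CALB1, the 3 glomerulosa markers of the set, did not move as one. VSNL1 (ENSG00000163032, GRCh38 chromosome 2, 17539126 to 17657018, plus strand) encodes visinin-like protein, a membrane-moving sensor. Its level was 8.84, 7.92 and 8.44 FPKM in control replicates 1, 2 and 3 and 12.2, 14.2 and 13.1 FPKM in knockdown replicates 1, 2 and 3. The lowest knockdown library was thus well above the highest control. The mean rose 1.57-fold, from 8.40 ± 0.46 to 13.2 ± 1.03 FPKM (SD, n = 3 each). On the log2 scale VSNL1 rose by 0.62 (SE 0.092, 95% interval 0.41 to 0.83, limma adjusted p = 0.0109), at the 97.3rd percentile of all genes tested. The call held in 15 of 16 alternatives, with log2 fold changes between 0.565 and 0.74. It ended without shCtrl replicate 3, where the fold change stayed at 0.62 (limma adjusted p = 0.0667) and 93 genes in all were called. The summed adrenocortical markers were also higher in every shTPD52 library (at least 535.8 FPKM, against at most 498 FPKM in shCtrl). Not every marker rose, since the mean of CYP17A1 was lower in shTPD52 and that of STAR nearly level. The part of the higher sum in the level of VSNL1 was not tested.

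CALN1 (ENSG00000183166, GRCh38 chromosome 7, 71779491 to 72447151, minus strand) encodes calneuron, a Golgi protein with EF-hand loops like those of calmodulin. Control libraries held 4.602, 5.596 and 5.39 FPKM and knockdown libraries 3.48, 4.996 and 2.86 FPKM. Knockdown replicate 2 lay inside the control range and the other knockdown libraries below it. CALN1 thus differed by -0.44 on the log2 scale (95% interval -0.86 to -0.023, limma adjusted p = 0.115). Without shTPD52 replicate 2 it was -0.64 and passed (limma adjusted p = 0.00602), in a fit that called 45.6% of all genes. After the length and GC correction it was -0.15 (limma adjusted p = 0.317). At 667661 bases from end to end CALN1 is the longest of the 9 genes, but the correction used its exon length, 10032 bases.

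CALB1 (ENSG00000104327, GRCh38 chromosome 8, 90058608 to 90095475, minus strand) encodes calbindin-D28k, a buffer with 4 EF-hand loops by the search used here. It was found at 10.7, 12.3 and 12.1 FPKM in control and 9.85, 12.3 and 8.52 FPKM in knockdown libraries. Its pattern over libraries was that of CALN1, with knockdown replicate 2 at the control level. For CALB1 the log2 difference was -0.20 (95% interval -0.51 to 0.11, limma adjusted p = 0.299). It was -0.33 and passed without shTPD52 replicate 2 (limma adjusted p = 0.0281), and -0.083 with median-ratio scaling. CALN1 and CALB1 had the widest spread among knockdown libraries, with coefficients of variation of 29.2% and 18.6% against 10.1% and 7.41% in shCtrl.

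**Figure D2:**
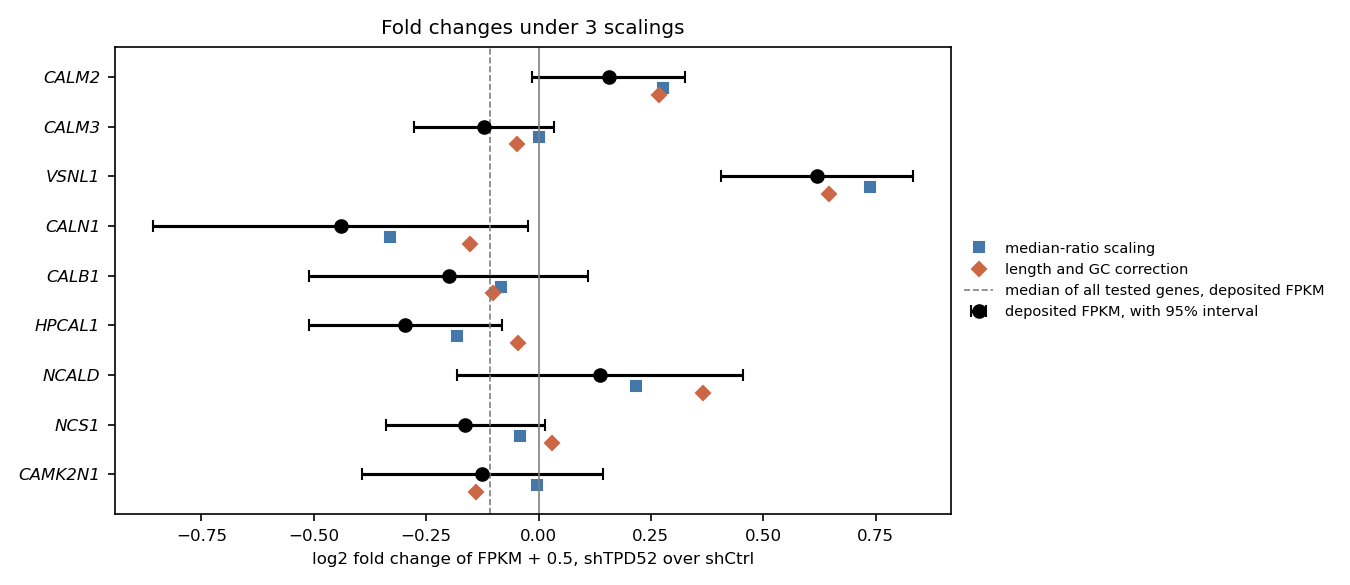
Log2 fold change of FPKM + 0.5, shTPD52 over shCtrl (horizontal axis), for each gene, as circles with 95% intervals for the deposited values, and as squares and diamonds after median-ratio scaling and the length and GC correction. The dashed line is the median of all genes tested, -0.11. VSNL1 stays between 0.62 and 0.74, and HPCAL1 moves from -0.30 to -0.046.

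The other sensors with a lipid-bearing start are HPCAL1, NCS1 and NCALD. HPCAL1 (ENSG00000115756, GRCh38 chromosome 2, 10302889 to 10427617, plus strand), a close relative of hippocalcin, gave 8.48, 7.92 and 7.41 FPKM with the control shRNA and 6.74, 6.37 and 5.996 FPKM with shTPD52. All knockdown libraries lay below all controls. Its log2 fold change of -0.30 did not pass (95% interval -0.51 to -0.081, limma adjusted p = 0.061), although the interval of the single gene leaves out 0. Without shTPD52 replicate 2 it had the same size and passed (limma adjusted p = 0.0351), and after the length and GC correction it was -0.046 (limma adjusted p = 0.694). The longest transcript of HPCAL1 has a GC content of 59.9%, the highest of the 9 genes.

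NCS1 (ENSG00000107130, GRCh38 chromosome 9, 130172578 to 130237304, plus strand) encodes the founding member of the family, which regulates a phosphatidylinositol kinase and exocytosis. The 3 controls read 27.2, 28.1 and 30.02 FPKM and the 3 knockdown libraries 24.98, 26.4 and 24.7 FPKM. The groups did not overlap, though knockdown replicate 2 and control replicate 1 were close. NCS1 had a log2 difference of -0.16 (95% interval -0.34 to 0.014, limma adjusted p = 0.155), and it turned to 0.029 after the length and GC correction.

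NCALD (ENSG00000104490, GRCh38 chromosome 8, 101686543 to 102124907, minus strand), the closest relative of HPCAL1 in the set, was scarce. It stood at 0.954, 0.902 and 0.974 FPKM in shCtrl and at 1.06, 1.24 and 0.975 FPKM in shTPD52. The lowest knockdown library and the highest control were almost level, at 0.9747 and 0.9741 FPKM. Only the shTPD52 mean, 1.091 FPKM, reached the filter of 1 FPKM, so the lack of overlap is not support for a rise. These values rest on an estimated 222 to 363 reads per library, the fewest of the 9 genes. The log2 fold change was 0.14 (95% interval -0.18 to 0.46, limma adjusted p = 0.485) and reached 0.36 after the length and GC correction without passing (limma adjusted p = 0.0638).

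CAMK2N1 (ENSG00000162545, GRCh38 chromosome 1, 20482391 to 20486220, minus strand) encodes a small inhibitor that binds active CaMKII. Levels were 28.8, 33.9 and 28.2 FPKM in control and 27.0, 31.7 and 24.7 FPKM in knockdown libraries, and the groups overlapped. CAMK2N1 differed by -0.12 on the log2 scale (95% interval -0.39 to 0.14, limma adjusted p = 0.449). Of the CaMKII subunit genes CAMK2G, the main one here, fell from 12.5 ± 0.82 to 8.31 ± 1.204 FPKM (SD, n = 3 each; log2 fold change -0.57, limma adjusted p = 0.0199). CAMK2D stood at 2.203 ± 0.37 and 1.73 ± 0.68 FPKM and did not pass. CAMK2B stood at 0.266 ± 0.071 and 0.479 ± 0.051 FPKM, below the filter, and CAMK2A had a mean of 0.00399 FPKM.

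Summed over these 4 genes CaMKII RNA summed to 15.0 ± 0.78 FPKM in control and 10.5 ± 1.85 FPKM in knockdown libraries. The log2 ratio of CAMK2N1 to that sum was 0.99, 1.22 and 0.83 in shCtrl and 1.47, 1.33 and 1.43 in shTPD52. All knockdown libraries had a higher ratio of CAMK2N1 to kinase RNA than all controls. The difference was 0.40, a 1.32-fold higher ratio (exact two-sided permutation p = 0.1, the smallest possible). It was 0.15 after the length and GC correction (exact permutation p = 0.4).

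**Figure D3:**
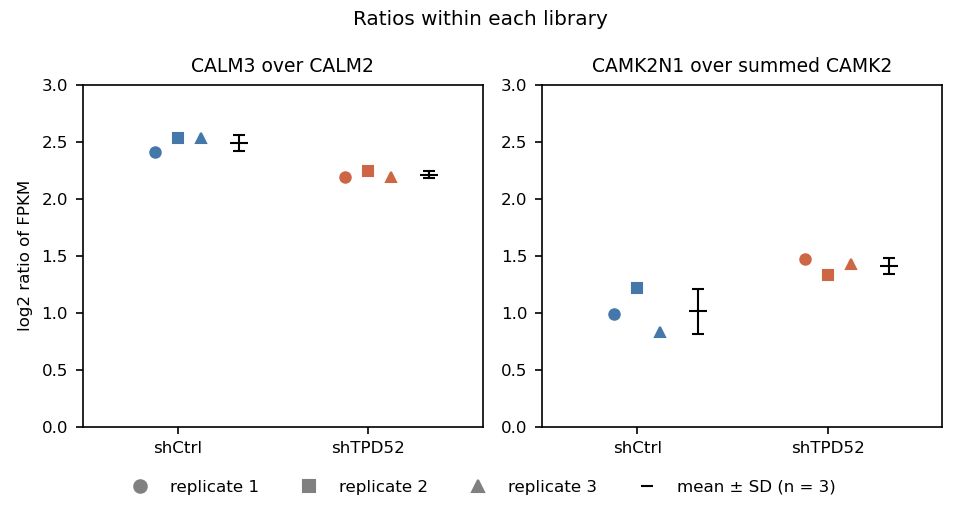
Log2 ratio of FPKM within each library (vertical axes, from 0) of CALM3 to CALM2 and of CAMK2N1 to the summed CaMKII genes, in shCtrl and shTPD52, with the marker shape giving the replicate number and the black bar the mean ± SD. The CALM3 to CALM2 ratio is lower in all shTPD52 libraries than in all shCtrl libraries (2.19 to 2.24 against 2.41 to 2.53), and the CAMK2N1 ratio is higher (1.33 to 1.47 against 0.83 to 1.22).

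**Figure D4:**
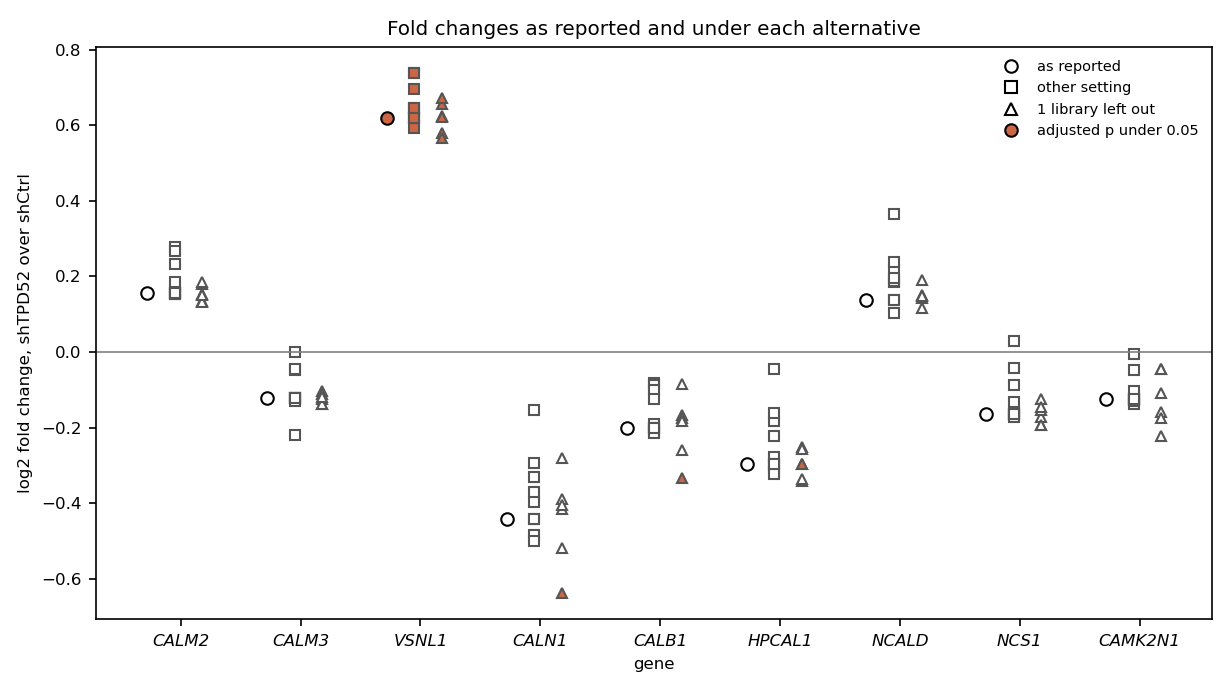
Log2 fold change of each gene (vertical axis) as reported (circles), under other settings (squares) and with 1 library left out (triangles); filled markers have an adjusted p under 0.05. VSNL1 is filled in all but 1 case, and CALN1, CALB1 and HPCAL1 are filled only without shTPD52 replicate 2.

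Other calcium sensors and calmodulin partners were read from 7 wider lists, without the 9 genes. The expression data held 82 of the 94 listed genes, and 44 of them passed the filter. Of the 44, 5 fell, none rose and 39 did not pass, a share of lower calls near the 12.7% of all genes; without adjustment 3 (CETN2, PCP4 and SRI) had p under 0.05 and a positive value and 11 had p under 0.05 and a negative one, and limma-voom called 2 higher (PCP4 and SRI). Their median log2 fold change was -0.15. Among the other EF-hand sensors 2 of 18 fell, both past the size of any of the 9 genes in the fit as reported. CIB2, an integrin-binding sensor also needed in hair cells, stood at 9.56, 9.52 and 9.55 FPKM in shCtrl and at 6.29, 4.14 and 5.36 FPKM in shTPD52, for a log2 difference of -0.82 (limma adjusted p = 0.0134). PDCD6, the penta-EF-hand protein ALG-2, had a log2 difference of -0.81 (adjusted p of 0.0236 in limma). Its levels were low, with 1.764, 2.294 and 1.937 FPKM in shCtrl and 0.925, 1.218 and 0.6697 FPKM in shTPD52. The shTPD52 mean, 0.9376 FPKM, was under the filter of 1 FPKM. PDCD6 was thus tested only through shCtrl, where it was high, so its call is not independent of the filter.

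Among calmodulin-binding regulators 1 of 9 fell, STRN3, a striatin scaffold of protein phosphatase 2A (log2 fold change -0.69, limma adjusted p = 0.0437). Among calmodulin-dependent enzymes 2 of 7 fell, CAMK2G and ADCY3, an adenylyl cyclase that calcium regulates (log2 fold change -0.56, limma adjusted p = 0.0411). All 7 had negative values, as did 8076 of the 12782 genes tested, and 12.7% of all genes tested were called lower. None of 5 S100 genes, 2 other neuronal calcium sensor genes and 3 other calmodulin-type genes passed. No gene of the calcium buffer list apart from CALB1 reached the filter. None of the 5 was called without a filter or with any single shCtrl library left out, CIB2 alone was called without shTPD52 replicate 1 or 3, and all 5 were called without shTPD52 replicate 2. ADCY3 also missed the threshold once length and GC were corrected, at -0.33 (limma adjusted p = 0.0962).

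**Figure D5:**
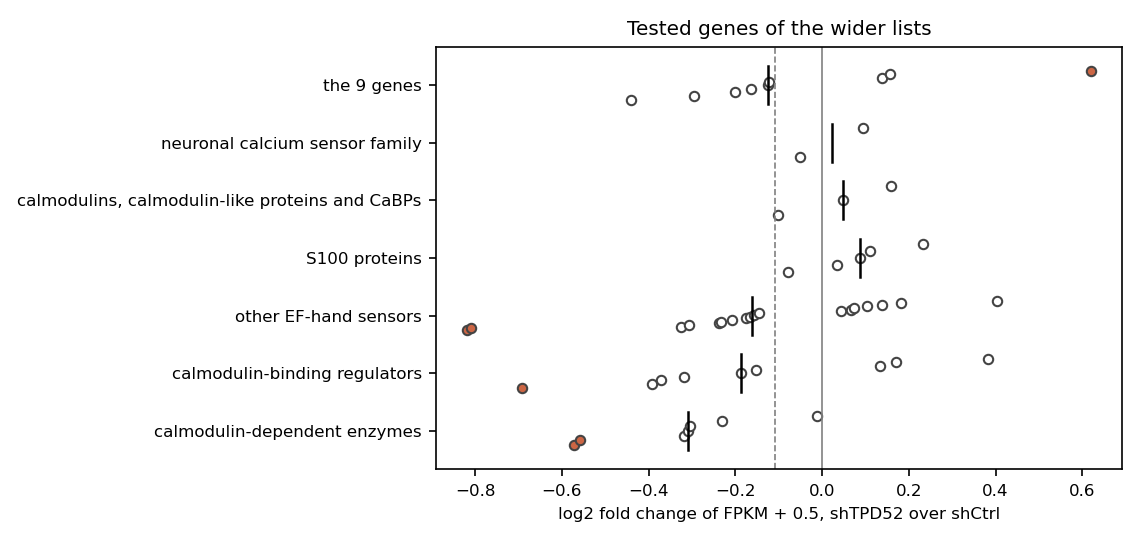
Log2 fold change of FPKM + 0.5, shTPD52 over shCtrl (horizontal axis), of the 9 genes and of each tested gene of the wider lists (rows); filled points have an adjusted p under 0.05, black bars are list medians and the dashed line is the median of all genes. VSNL1 is the only filled point above 0, and CIB2 and PDCD6 lie farthest below it.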

How the data were processed

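RNA of 6 libraries was analysed as the FPKM that the authors deposited, 1 column per library for 34869 genes. Tools in the submitters' processing notes are HISAT2 2.2.1 and featureCounts 2.0.3, and the build is GRCh38. Which annotation, filters and strandedness applied is not given in the sources used here. Groups came from the sample titles. Genes averaging 1 FPKM or more were compared as log2(FPKM + 0.5), a scale that understates changes of low genes. The test was limma 3.58.1 in R 4.3.3 (intensity trend, two-sided, Benjamini-Hochberg adjustment over 12782 genes, threshold 0.05). The fit was also run on simulated counts with the same dispersion for every gene and no outlying library. That run therefore does not bear on the spread between the libraries here. Ratios were compared by exact permutation.

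Symbols matched 99.8% of identifiers. Depth was estimated from low FPKM being multiples of 1 read over the GENCODE 29 exon length. Between 65.5% and 68.5% of values under 500 reads came out whole within 0.05, so read numbers are approximate and cover counting error only. Of estimated numbers from 1 to 20, 29.6% to 32.7% were odd, so independent fragments may be fewer than these reads. This was not tested. For a 2 kb gene 3 reads equal 0.039 to 0.051 FPKM. EF-hand loops were searched in translated GENCODE frames.

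Named were the 9 genes, TPD52, the CaMKII genes and up to 3 passing genes per wider list with the smallest p. The members and lists were chosen with earlier results of these data known. RBFOX3, CALM2P2 and PPP5D1P were named outside this rule, and some results are not reported here. Other settings tried were median-ratio scaling, quantile normalization, pseudocounts of 0.1 and 1, a stricter filter (5 FPKM) or none, a length and GC correction (loess, span 0.3), rescaling to non-mitochondrial reads, limma-voom on estimated reads, a replicate block and leaving out each library.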

Additional observations from a re-analysis of the deposited data

How the results depend on the processing

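VSNL1 was the only one of the 9 genes called higher in every setting but 1, and none was called without shCtrl replicate 3, so that count ran from 0 to 1 over fits leaving out a library. The count called lower was 0 in every setting that kept all libraries and ran from 0 to 3 when leaving out a library, the 3 (CALN1, CALB1 and HPCAL1) without shTPD52 replicate 2. The number of genes called was 2341, 531 without a filter, and from 93 to 5822 when leaving out a library. A filter of 5 FPKM left CALN1 and NCALD untested, and NCALD was untested without shTPD52 replicate 2.

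The sign turned for CALM3 with median-ratio scaling (0.0013) and for NCS1 after the length and GC correction (0.029); the cause was not tested. No wider-list gene was called higher as reported. SRI was, as 1 gene, with median-ratio scaling, with quantile normalization, with the 5 FPKM filter, on rescaling to non-mitochondrial reads and with the replicate block. OCM was the 1 gene without a filter and CALD1 the 1 after the length and GC correction, and limma-voom called 2. Leaving out a library gave 0 to 3 higher and 0 to 11 lower, and without a filter 0 were lower.

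Same-numbered libraries hardly deviated together for replicates 1 and 3 (correlations 0.0451 and 0.0223) and did so more for replicate 2 (0.248). The numbers were not taken as pairs in the fit as reported. Not every library correlated best with its own number, since shCtrl replicate 1 did with shTPD52 replicate 3 (0.283). With the replicate block 3064 genes were called, VSNL1 kept its call (limma adjusted p = 0.0123) and none of the other 8 passed.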

Other observations

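PCP4, a small protein that speeds calcium exchange on calmodulin, was chosen after its values were seen, as the most abundant gene of the wider lists. It stood at 1003, 966 and 813 FPKM in shCtrl and 1260, 1037 and 1334 FPKM in shTPD52, and the groups did not overlap. PCP4 had a log2 fold change of 0.38 and did not pass (95% interval 0.090 to 0.67, limma adjusted p = 0.0691). It was called higher with limma-voom and without shTPD52 replicate 2. Its mean of 927 FPKM in shCtrl stood well above the 139 FPKM of CALM3.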
